A study of Mus musculus with 9 samples.

Results

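Phf7, Lyar and Mif4gd are 3 genes, grouped here as germ cell regulators. Their products read histones, promote growth from the nucleolus and help translate histone mRNA. The arrays do not show which cells carry their RNA. On these cDNA arrays they were taken as the 4 probes whose only gene symbol in the platform annotation was one of the 3, out of 16128 probes and 7117 named genes: 1 for Phf7, 2 for Lyar, averaged on each array, and 1 for Mif4gd. They were chosen by their log ratios at 15 days, where Phf7, Mif4gd and Lyar ranked 9, 11 and 12 from the lowest of 6958 genes tested, so their 15-day values are a description without a test. The arrays compared whole testis of Spo11-/- mice with wild type whole testis, as total RNA, 1 knockout and 1 wild-type sample per array labelled with different dyes. There were 4 arrays at 15 days, all with knockout in Cy3, and 5 at 12 days, with knockout in Cy5 on replicates 1, 4 and 5 and in Cy3 on replicates 2 and 3. Per the design text, different pairs of mice came from a litter. The labels do not say whether any RNA served more than 1 array, so an array stands for 1 replicate, and p-values measure the spread between arrays, which may be technical. Strain and knockout allele are not named in the labels. Whole testis holds many cell types, and fewer cells of a type and less RNA per cell cannot be told apart in it.

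SPO11 makes the DNA double-strand breaks that start meiotic recombination, and in juvenile mice the first wave of germ cells moves through meiotic prophase in near synchrony, so testis RNA changes with age. PHF7 carries a PHD finger, a fold that binds methylated histone H3, and a RING domain that ubiquitylates histones. In Drosophila it promotes male identity of germ cells, and in mouse it is needed for the exchange of histones for protamines in spermatids. LYAR is a zinc finger protein of the nucleolus, abundant in testis and in growing cells, that takes part in ribosomal RNA processing. MIF4GD, also called SLIP1, binds the stem-loop binding protein SLBP on replication-dependent histone mRNAs, which lack a poly(A) tail, and links it to the translation machinery. Each of the 3 is set beside the genes of its own pathway.

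The promoters of the 3 genes are shown because their 15-day ratios lay close together. Each run is the 250 bases before the RefSeq start in build GRCm38.p6, on the gene's strand, with capitals for matches to any of 7 motifs searched on both strands. Mif4gd has a second start in the RefSeq table, and the outer one is shown.
Phf7, chr14:31251316-31251565, minus strand: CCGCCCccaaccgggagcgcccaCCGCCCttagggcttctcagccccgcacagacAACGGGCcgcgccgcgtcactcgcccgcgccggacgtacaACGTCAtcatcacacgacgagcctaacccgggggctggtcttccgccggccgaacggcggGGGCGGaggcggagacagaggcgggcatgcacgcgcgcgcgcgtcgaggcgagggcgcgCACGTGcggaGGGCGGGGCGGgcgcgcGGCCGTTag
Lyar, chr5:38220232-38220481, plus strand: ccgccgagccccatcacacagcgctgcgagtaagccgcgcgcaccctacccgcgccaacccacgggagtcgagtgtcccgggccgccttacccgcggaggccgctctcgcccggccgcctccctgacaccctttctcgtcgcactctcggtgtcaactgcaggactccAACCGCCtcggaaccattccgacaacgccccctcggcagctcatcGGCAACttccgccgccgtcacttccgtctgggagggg
Mif4gd, chr11:115612970-115613219, minus strand: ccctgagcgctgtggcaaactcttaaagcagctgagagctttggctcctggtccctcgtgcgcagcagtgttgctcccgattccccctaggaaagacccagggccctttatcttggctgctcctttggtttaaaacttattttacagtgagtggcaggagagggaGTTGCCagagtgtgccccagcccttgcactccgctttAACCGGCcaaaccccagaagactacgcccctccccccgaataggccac

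The MYB motif AACNGNC had 2 matches in the Phf7 promoter, 1 in that of Lyar and 1 in that of Mif4gd, and 27.7% of all 32851 promoter windows of this length held it. The RFX motif GTTGCC matched once in Lyar and once in Mif4gd and not in Phf7, against 10.4% of all windows. Phf7 alone held the GC box GGGCGG, 5 times with 1 pair sharing a base, the CRE motif TGACGT and an E-box CACGTG once each, which were in 32.7%, 6.47% and 6.02% of all windows. The NRF1 motif (3.74% of windows) and the CCAAT box (33.8%) matched in none of the 3. GC content was 76.4% for Phf7, 70.0% for Lyar and 57.2% for Mif4gd, with a median of 52.4% over all windows. A match is a string of letters, not a bound site.

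The values are log ratios of the dyes, read as log2 and centred on 0 in every array. They give no level of a gene in either sample, so a marker cannot be checked as present or absent. Spo11 itself had no annotated probe, and the deletion was not checked. An array had values for 72.1% to 91.3% of the probes. Which sample stands on top of the ratios is unsettled. Read as Cy5 over Cy3, by the labelled dyes, a 15-day value below 0 means more RNA in knockout testis. Read as knockout over wild type, the same value means less. All 4 arrays at 15 days correlated below 0 with 12-day replicate 3 (r = -0.38 to -0.33 across probes), although knockout carried Cy3 on each of them. Signs are therefore given as deposited unless said otherwise, and turning the sign turns all 3 genes together.

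At 15 days Phf7, Lyar and Mif4gd lay about 3-fold from 0 on the same side, on every array. Phf7 had log2 ratios of -1.33, -1.69, -2.09 and -1.43 on replicates 1 to 4. It was farthest from 0 on replicate 3, where it ranked 7 from the lowest of 12350 features. Its mean was -1.64 ± 0.34 (SD, n = 4), a 3.11-fold difference, higher in the knockout under the Cy5 over Cy3 reading and lower in the knockout under the other.

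Mif4gd had log2 ratios of -1.56, -1.82, -1.89 and -1.13, with a mean of -1.60 ± 0.34 (SD, n = 4) or 3.03-fold. Replicates 2 and 3 were the lowest and replicate 4 the nearest to 0. Lyar, as the mean of its probes, had -1.38, -2.16, -1.74 and -0.99, with a mean of -1.56 ± 0.50 (SD, n = 4) or 2.96-fold. Its spread between arrays was the widest of the 3, and replicate 2 was the lowest.

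The Lyar probes differed in size but not in sign at 15 days. The first had -1.11, -1.95, -1.16 and -0.88 on replicates 1 to 4, and the second -1.64, -2.36, -2.31 and -1.10. The second was farther from 0 on 4 of 4 arrays, by 0.58 on average, from 0.22 on replicate 4 to 1.15 on replicate 3. At 12 days their means were 0.18 for the first and 0.26 for the second, and the second was lower on 1 of 5 arrays.

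On each 15-day array the 3 genes lay within 0.23 to 0.47 of each other and ranked between 7 and 28 from the lowest of 11723 to 12350 features. Their own mean moved more between arrays than they differed on any one of them, from -1.91 on replicate 3 to -1.18 on replicate 4. Of 12198 features tested against 0 with limma 5.37% passed below 0 (adjusted p under 0.05) and 7.05% above it. The 3 genes are among those below 0, and since this contrast chose them nothing is read from that. Since all arrays of this age had 1 dye orientation, a dye effect of a gene's own enters these values and cannot be told apart from the knockout effect there.

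**Figure D1:**
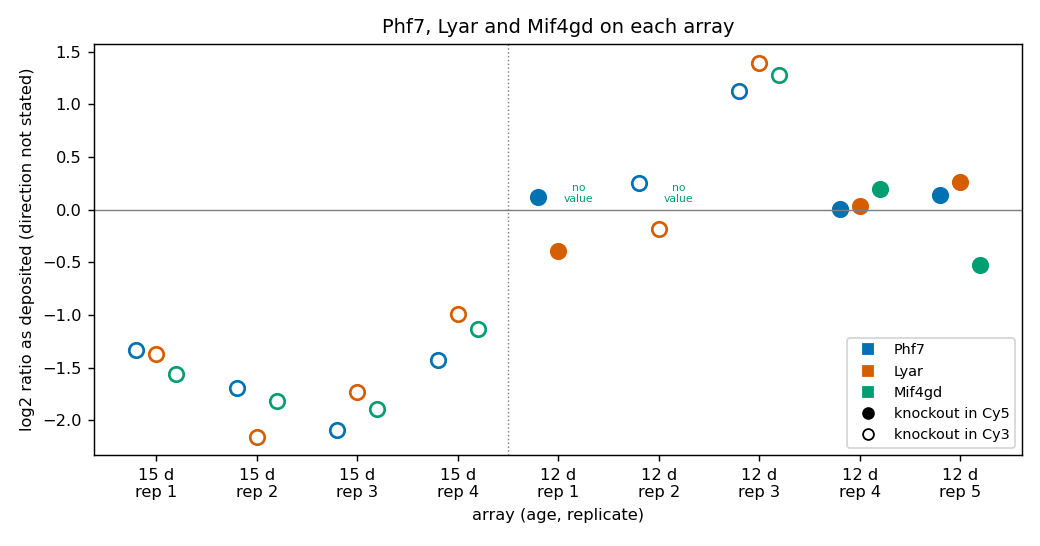
Log2 ratios of Phf7, Lyar and Mif4gd on each array, as deposited, at 15 days (left) and 12 days (right), 1 point per gene and array, filled where knockout carried Cy5 and open where it carried Cy3. All 12 points at 15 days lie below -0.9, and 12-day replicate 3 holds the 3 points above 1.

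At 12 days the 3 genes lay near 0 on most arrays and far above it on replicate 3. Phf7 had 0.12, 0.01 and 0.142 on the arrays with knockout in Cy5 (replicates 1, 4 and 5), and 0.25 and 1.13 on those with knockout in Cy3 (replicates 2 and 3). It was above 0 on 5 of 5 arrays as deposited, whichever dye the knockout carried. Its 15-day and 12-day values did not overlap, nor did those of Lyar or of Mif4gd. The choice by 15-day values favours such a gap, and the share of all features with one is not given here. Lyar had -0.395, 0.03 and 0.26 with knockout in Cy5, and -0.18 and 1.40 with knockout in Cy3. Its sign thus differed within each orientation.

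Mif4gd had a value on 3 arrays at 12 days, 0.20 and -0.522 with knockout in Cy5 (replicates 4 and 5) and 1.28 with knockout in Cy3 (replicate 3). On replicate 3 Lyar ranked 7, Mif4gd 12 and Phf7 18 from the highest of 12130 features. On the other 12-day arrays from 10.1% to 88.5% of features lay lower than each of them.

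The high values on replicate 3 were shared with other genes that were low at 15 days. Of the 40 other genes with a 15-day mean of -1 or lower, 36 of the 37 with a value on replicate 3 lay above 0, with a median of 0.77. On the other 4 arrays the median of these genes lay between -0.10 and 0.09. Replicates 2 and 3 had the same dye orientation, and their medians for these genes were -0.10 and 0.77.

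The 12-day comparison asks for the effect of the knockout at the younger age. The genes were chosen by their ratios at the older age, but with earlier results of these data known. The 12-day p-values are therefore not shown to be free of that choice. With the ratios read as Cy5 over Cy3 and a dye term in the fit, Phf7 had a knockout over wild-type log2 ratio of -0.30 (SE 0.14, 95% interval -0.63 to 0.03, n = 5), with limma adjusted p = 1.0 and unadjusted p = 0.067. Turned this way, 3 of 5 arrays lay above 0 and 2 below, and the arrays below 0 were those with knockout in Cy3. Lyar had -0.32 (SE 0.23, 95% interval -0.87 to 0.23, n = 5), with adjusted p = 1.0 and 2 of 5 arrays below 0. Neither passed, as did none of 10075 features (0%, with 269 at an unadjusted p under 0.05). The intervals still allow a 1.5-fold difference lower in the knockout for both genes.

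Mif4gd fell short of the 4 values this fit asked for. With 3 values allowed, a setting chosen after seeing the data, it had -0.72 (SE 0.19, n = 3), with limma adjusted p = 1.0 over 11873 features and unadjusted p = 0.014. That estimate sets replicates 4 and 5 against replicate 3 alone.

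The 12-day estimates depended on replicates 2 and 3, the arrays with knockout in Cy3. Without replicate 3 the knockout effect was -0.08 for Phf7 and 0.07 for Lyar, while without replicate 2 it was -0.52 and -0.72, with adjusted p = 1.0 in each case. If the deposited values are knockout over wild type on every array, the effect was 0.33 (SE 0.16) for Phf7 and 0.22 (SE 0.24) for Lyar, with limma adjusted p = 0.58 and 0.77. The array titles carry numbers in 2 ranges, under and over 1000. Within the range under 1000 (replicates 1 and 2) the effect was -0.07 for Phf7 and -0.11 for Lyar, and within the range over 1000 (replicates 3, 4 and 5) it was -0.53, -0.63 and, for Mif4gd, -0.72. With the range as a block it was -0.33 for Phf7 (unadjusted p = 0.042) and -0.40 for Lyar (0.027), both with adjusted p = 1.0.

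The dye term of the same fit is the part of a ratio that keeps its sign when the dyes are swapped. That name holds for ratios read as Cy5 over Cy3. If the deposited values are knockout over wild type, this part would instead be the knockout effect. It was 0.39 (SE 0.14, n = 5) for Phf7, with limma adjusted p = 0.72 and unadjusted p = 0.026, and 0.29 (SE 0.23) for Lyar, with adjusted p = 0.78. None of 10075 features passed (0%, with 675 at an unadjusted p under 0.05). As deposited, the sign of both dye terms was opposite to that of the 15-day ratios, and without replicate 3 they were 0.17 for Phf7 and -0.11 for Lyar. The difference between the ages was not tested for these genes, since the 15-day values chose them.

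**Figure D2:**
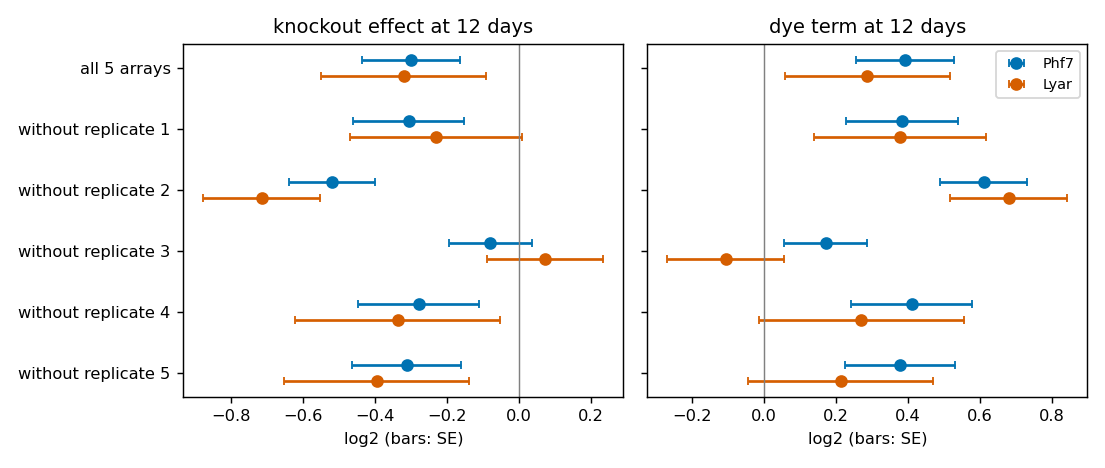
Knockout effect (left, ratios taken as Cy5 over Cy3 and turned to knockout over wild type) and dye term (right) of Phf7 and Lyar at 12 days, on the log2 scale with SE bars, from all 5 arrays and with each array left out. Both names hold for ratios read as Cy5 over Cy3. Without replicate 3 the Lyar estimates are 0.07 and -0.11, on the other side of 0 from those of all arrays.

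The genes most like each of the 3 over the arrays were found by the root mean square difference of log2 ratio, a measure that no turning of an array's sign changes. For Phf7, among 6118 genes compared over at least 8 arrays, the nearest were Gstm5, a glutathione transferase gene (0.32), the radial spoke gene Rsph3a (0.33), Lyar (0.35), B9d1 of the ciliary transition zone (0.36) and Coprs, a partner of the arginine methyltransferase PRMT5 (0.37). The median difference from Phf7 over all genes compared was 1.18. Phf7 differed from the nearest of them at both ages. On 15-day replicate 4 it had -1.43, Gstm5 had -0.88 and Rsph3a had -0.93. On 12-day replicates 1 and 2 it had 0.12 and 0.25, Gstm5 had -0.33 and -0.18, and Rsph3a had -0.50 and -0.28.

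For Lyar the nearest was Asrgl1, an asparaginase gene, at 0.12, with log2 ratios of -1.62, -2.27, -1.67 and -0.99 at 15 days and of -0.27, -0.10, 1.55, 0.03 and 0.31 on 12-day replicates 1 to 5. Lyar and Asrgl1 thus lay far from 0 on the same arrays and by similar amounts. Next were Rsph3a (0.22), the dynein regulatory complex gene Ccdc65 (0.26), Gstm5 (0.28) and Ccdc136 (0.30), and Phf7 ranked 8 of 6118 (0.35).

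Mif4gd had 7 arrays, under the 8 asked for, so its neighbours were taken over those 7, a setting chosen after seeing the data. Among 6254 genes they were the centrin gene Cetn4 (0.23), Gstm5 (0.24), B9d1 (0.32), Phf7 (0.32) and Lyar (0.35), so that the other members ranked 4 and 5. Mif4gd differed from these on 12-day replicate 5, where it lay at -0.522, Phf7 at 0.142 and Lyar at 0.26. These points share arrays and the 15-day values that chose the members, and the measure is a description.

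**Figure D3:**
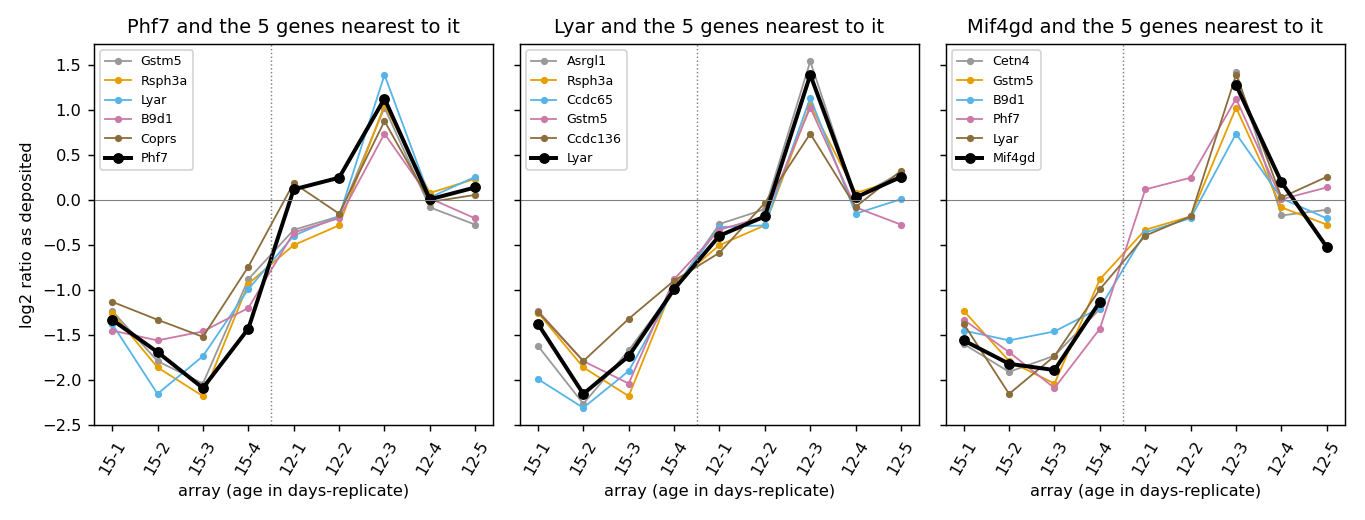
Log2 ratios as deposited over the 4 arrays at 15 days and the 5 at 12 days for Phf7, Lyar and Mif4gd (black) and the 5 genes nearest to each (colours), 1 point per array. All profiles lie below -0.7 at 15 days and between 0.74 and 1.55 on 12-day replicate 3.

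Genes that act beside Phf7 on histones lay nearer to 0, which says little, since Phf7 was chosen by its 15-day ratio. Most did not pass, as most of all genes did not. Of 25 tested genes with PHD fingers 1 passed above 0 at 15 days and none below, with a median of 0.05, while 4.04% of 6958 genes passed above 0 and 7.2% below, with a median of -0.02. The one that passed was Phf21a, which encodes a subunit of a histone demethylase complex, at 1.06 (SE 0.28, limma adjusted p = 0.040). It lay at 1.26, 2.07, 1.13 and -0.22 on the 4 arrays, with replicate 4 opposite to the others, and it did not pass without replicate 1, 2 or 3, nor after scaling, quantile normalization or robust empirical Bayes. Phf1 (-0.49), Phf6 (-0.40) and Jade3 (0.34) did not pass, with adjusted p from 0.055 to 0.071.

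Methylation of histone H3 lysine 4 is the kind of mark that PHD fingers bind. Of 20 genes of enzymes that write or erase it and of subunits that act with them, 2 passed below 0 and 1 above. These were the demethylase gene Kdm5b (-0.42, SE 0.10) and the methyltransferase genes Setd1b (-0.37, SE 0.10) and Kmt2c (0.40, SE 0.11), with limma adjusted p of 0.031, 0.045 and 0.049. Kdm5b and Setd1b did not pass with any array left out. Kdm5c lay at 0.41 with adjusted p = 0.0501. The median of the list was -0.0049. Over all genes 7.2% passed below 0 and 4.04% above.

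Of 15 genes of the exchange of histones for protamines 4 passed below 0 and 1 above, with a median of -0.13. Over all genes 7.2% passed below 0 and 4.04% above. Brdt, a bromodomain gene of spermatocytes and spermatids, had -0.47, -0.54, -0.53 and -0.41 on the 4 arrays, with a mean of -0.49 (SE 0.10, limma adjusted p = 0.017). All 4 values lay close together, at less than 1 log2 unit from 0. The acetyltransferase gene Kat8 (-0.63), the histone H3.3 gene H3f3b (-0.56) and the demethylase gene Kdm3a (-0.45) also passed below 0, with adjusted p from 0.017 to 0.026. Rnf8, a ubiquitin ligase gene of histones, lay at -0.18 (SE 0.11, adjusted p = 0.28). With 1 array left out 0 to 3 of the list passed below 0. Prm1 and Prm2 were not analysed here.

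Around Lyar, 5 of 56 genes of the nucleolus and ribosome biogenesis passed below 0 and 1 above, with a median of -0.10. The 4 of smallest p were Rrp1 (-0.59, SE 0.12), which acts in ribosomal RNA processing, the RNA polymerase I subunit genes Polr1c (-0.52, SE 0.10) and Polr1d (-0.48, SE 0.11), and Ubtf (0.42, SE 0.11), a transcription factor of ribosomal DNA. Their limma adjusted p ranged from 0.016 to 0.037. Ncl, which encodes nucleolin, lay at 0.17 (SE 0.11, adjusted p = 0.32) and the nucleolar gene Nop56 at 0.27 (SE 0.11, adjusted p = 0.14). The share below 0 was near that of all genes, of which 7.2% passed below 0 and 4.04% above. With 1 array left out 0 to 2 genes of the list passed below 0 and none above.

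Around Mif4gd, 3 of 16 genes of histone mRNA processing and translation passed below 0 and none above, with a median of -0.07. Over all genes 7.2% passed below 0 and 4.04% above. The 3 of this list were Coil (-0.85, SE 0.15), which encodes coilin of Cajal bodies, Larp7 (-0.78, SE 0.10), a 7SK RNA-binding protein gene, and the cap-binding gene Ncbp1 (-0.63, SE 0.11), with limma adjusted p from 0.0035 to 0.011. Lsm10, of the U7 particle that cuts histone mRNA, lay at -0.41 and did not pass (adjusted p = 0.059). Slbp, which encodes the direct partner of MIF4GD, lay at -0.17, -0.27, -0.01 and 0.01 on the 4 arrays, with a mean of -0.11 (SE 0.10, adjusted p = 0.51). The helicase gene Ddx19b lay at 0.02 (SE 0.12, adjusted p = 0.95), and Eif4g1 was not analysed here.

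Of 6 other genes with MIF4G domains 3 passed below 0 and none above, with a median of -0.30. Over all genes 7.2% passed below 0 and 4.04% above. The splicing factor gene Cwc22 lay at -1.09 (SE 0.25, limma adjusted p = 0.025) and Paip1, a poly(A)-binding protein partner, at -0.50 (SE 0.12, adjusted p = 0.033). Ncbp1 is also in this list and Upf2 lay at 0.11 (adjusted p = 0.49). With 1 array left out 1 to 3 passed below 0. Of 3 replication-dependent histone genes tested none passed on all 4 arrays (0 to 1 above 0 with 1 array left out), with H4c18 at 0.42 (SE 0.16, limma adjusted p = 0.11), H2ac24 at -0.18 (SE 0.10, adjusted p = 0.25) and H2ac8 at 0.03 (SE 0.10, adjusted p = 0.89). These genes share long stretches of sequence with their copies, so a probe may report several of them.

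**Figure D4:**
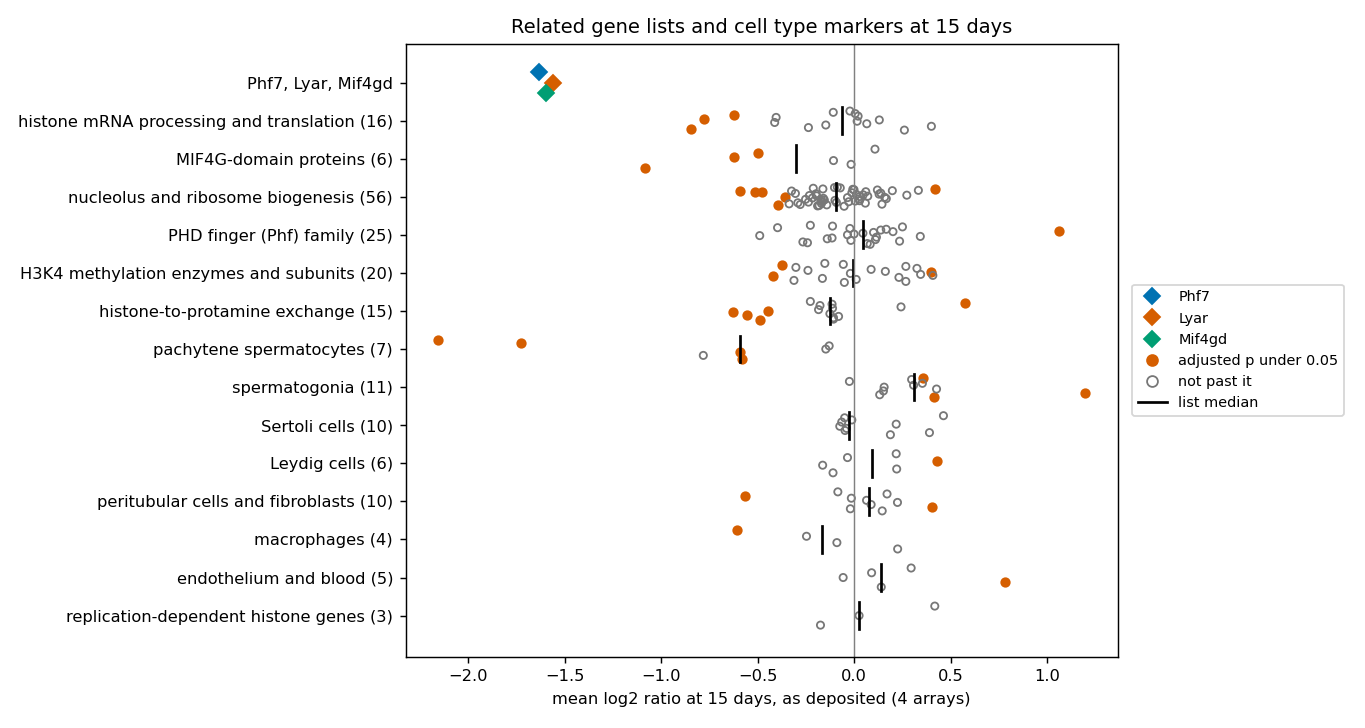
Mean log2 ratio at 15 days (4 arrays, as deposited) of each gene of the related lists and cell type markers, 1 point per gene with the number tested in brackets, filled where limma's adjusted p was under 0.05, with the list median as a bar and Phf7, Lyar and Mif4gd as diamonds. The pachytene list alone holds points as far below 0 as the 3 genes, Slc2a3 at -2.16 and Rsph1 at -1.73.

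At 15 days the markers of pachytene spermatocytes lay on the same side of 0 as Phf7, Lyar and Mif4gd. Most of those of spermatogonia lay on the other. The lists were chosen with earlier results of these data known, and 7 of 26 listed pachytene markers had an annotated probe. The counts below are therefore a description. Of 7 markers of pachytene spermatocytes 4 passed below 0 and none above, and 7 of 7 lay below 0, with a median of -0.59. Over all genes 7.2% passed below 0 and 4.04% above. With 1 array left out 2 to 5 of these markers passed below 0, and 2 without replicate 3. The glucose transporter gene Slc2a3 lay at -2.16 (SE 0.23), the radial spoke gene Rsph1 at -1.73 (SE 0.17), the chaperone gene Hspa4l at -0.59 (SE 0.13) and the crossover gene Ccnb1ip1 at -0.58 (SE 0.11), with limma adjusted p from 0.0013 to 0.024. The median of the list per array was -0.65, -0.87, -0.80 and -0.41 on the 4 arrays. It was therefore nearest to 0 on replicate 4, as were Lyar and Mif4gd. At 12 days it was -0.10, 0.08, 0.89, 0.13 and 0.46 on replicates 1 to 5, so it was high on replicate 3 with the 3 genes. On replicate 5 it lay above 0 where the mean of the 3 genes was -0.04 and Mif4gd had -0.522.

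Of 11 spermatogonial markers 3 passed above 0 and none below, with a median of 0.31, and 1 passed with any 1 array left out. Over all genes 4.04% passed above 0 and 7.2% below. Of the somatic markers, none of 10 Sertoli cell genes passed, 1 of 6 Leydig cell genes passed above 0, 1 above and 1 below of 10 peritubular and fibroblast genes, 1 of 4 macrophage genes below and 1 of 5 endothelial and blood genes above. Each of these somatic calls was lost with at least 1 array left out, and without replicate 3 none passed. The somatic list medians lay between -0.17 and 0.14. No gene of any list passed at 12 days, where the list medians of the knockout effect lay between -0.33 and 0.07. The part of cell composition in the ratios of Phf7, Lyar and Mif4gd was not tested.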

How the data were processed

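Per the labels, total RNA of Spo11-/- and wild type whole testis was hybridised to 2-colour arrays, 4 at 15 days and 5 at 12 days. The authors used a GenePix 4000A scanner and GenePix 3.0 with its default flags, then set the median of every array to 0 and selected genes by SAM (1% false discovery, 1.5-fold), per the design text. The deposited values were log ratios, read as log2. Log base, background correction and direction are unstated in the labels. No intensities were used, so signal over background is unknown, and precision is limited by how many arrays there are.

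The platform annotation gave 1 gene for 9604 of 16128 probes, several for 213 and none for 6311. RefSeq symbols (GRCm38.p6) replaced older ones through Entrez IDs, found for 98.9% of single-gene probes. Each gene took the mean of its probes per array, and the remaining probes stayed features of their own. Tests on the log2 scale used limma 3.58.1 and R 4.3.3 (two-sided, Benjamini-Hochberg adjusted p under 0.05 over all features). At 15 days a feature's mean over 3 or more values was set against 0, and at 12 days a knockout coefficient beside a dye intercept, given 4 or more values that cover both orientations. With 1 array left out these minimums fell to 2 and 3. Replicate numbers follow the order of deposit.

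The members and gene lists were chosen with earlier results of these data known. Named were the 3 members, the 5 genes of smallest root mean square difference to each, up to 4 genes of smallest p at 15 days from each pathway list and the pachytene list, and partners of the members. Alternatives covered scaling, quantile normalization, single probes, missing values, robust empirical Bayes, dye terms, title ranges, sign and each array left out. A further one applied the study's cut-offs for false discovery and fold to limma instead of SAM. Centring on a local median (100 spots to either side), a minimum of 3 values and the titles over 1000 alone were added after seeing the data. On simulated arrays with each feature's real spread, limma recovered 69 of 100 features with a true log2 change of 1 at 15 days (12198 features). At 12 days it recovered 87 of 100 (10075 features). In each simulation 100 features with a change of 2 were added as well. Values were drawn independently, without a dye effect or an array on which many genes moved together. The simulation checks the fit and does not say which changes the real 12-day comparison could have detected.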

Additional observations from a re-analysis of the deposited data

Results flagged for a closer look

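On 12-day replicate 3, Phf7 (1.13), Gstm5 (1.03), Ccdc65 (1.14) and Slc2a3 (2.36) lay far above their other 12-day values as deposited, and, turned by the dyes, Coprs (-0.88) and Slc2a3 (-2.36) lay far below theirs. Lyar (1.40) and Mif4gd (1.28) were as high on this array without standing apart by the same measure, in the case of Mif4gd because 3 values are too few for it. Single arrays also stood apart for Ncbp1 (-0.996 on 12-day replicate 5), Kdm5b (-0.315 on 12-day replicate 2), Phf6 (-0.03 on 15-day replicate 4), H4c18 (-0.27 on 15-day replicate 4) and H2ac8 (0.20 on 15-day replicate 1). These were 11 of 130 sets of values checked over 46 named genes. Chance alone gives about 1 in 20 for independent sets. These sets are not independent, since the 12-day values were checked both as deposited and turned. Gstm5, Ccdc65 and Coprs were also named for their likeness to the members over all arrays. The count is therefore not read against that share.

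All arrays of one age lay on one side of 0 and all of the other age opposite, as deposited, for Phf7 (mean difference, 15 minus 12 days, -1.97), Slc2a3 (-2.87), H3f3b (-0.77) and Polr1c (-0.62). With all ratios turned by the dyes this held for Cetn4 (2.18), over 7 arrays, since it had no value on 12-day replicates 1 and 2. The difference between the ages was not tested for any of them, and the share of all features with such a change of side is not given here.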

How the results depend on the processing

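The 15-day means of Phf7, Lyar and Mif4gd kept their sign under all alternatives but the turned sign, where they were 1.64, 1.56 and 1.60. With each array left out they ranged from -1.74 to -1.48, from -1.76 to -1.37 and from -1.76 to -1.50. The 12-day knockout effect stayed short of the threshold under all alternatives, ranging with each array left out from -0.52 to -0.08 for Phf7 and from -0.72 to 0.073 for Lyar (adjusted p = 1.0 without replicate 3), and the dye term from 0.17 to 0.61 and from -0.11 to 0.68. With the deposited sign as knockout over wild type the effect was 0.33 and 0.22, also with at least 3 values. The deposited sign changes the direction by its construction; of the single arrays left out, replicate 3 alone turned the sign, that of both Lyar estimates, and the cause was not tested. The counts at 15 days were 860 features above and 655 below 0. With an array left out they ranged from 201 to 580 and from 156 to 441. With the study's cut-offs (1% and 1.5-fold) applied to limma instead of SAM they were 121 each, lower by construction. The study's own count is not given here. At 12 days 2 features passed above 0 on the titles over 1000 alone, and 0 with any 1 array left out. Between 1 and 16 list counts moved by over 1.5 times in each of 11 settings, most with the study's cut-offs applied to limma. Each array already pairs a knockout with a wild-type sample, so every test on the ratios is paired within arrays. No pairing between arrays was possible because the labels give no replicate numbers.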
